A study of Homo sapiens with 6 samples.

Results

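The nuclear genes of oxidative phosphorylation were taken as the protein-coding RefSeq genes of GRCh38 whose symbols start with NDUFA, NDUFB, NDUFC, NDUFS, NDUFV, UQCR or ATP5, or with COX4 to COX8. The rule found 92 of 20056 protein-coding genes. By symbol, 7 of them encode the catalytic core of complex I, 31 its other subunits and 8 its assembly factors, while 9 belong to complex III, 17 to complex IV and 20 to complex V. The readthrough genes NDUFC2-KCTD14 and ATP5MF-PTCD1 met the rule as well, and each shares sequence with a member and with a neighbouring gene.

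Oxidative phosphorylation couples the oxidation of NADH and succinate to ATP synthesis at the inner mitochondrial membrane. Complex I takes electrons from NADH and passes them to ubiquinone, complex III hands them to cytochrome c, complex IV reduces oxygen, and complex V uses the resulting proton gradient to make ATP. Most subunits are encoded in the nucleus, and many of their promoters carry sites for the factors NRF1, GABPA (an ETS protein) and YY1. Many colon cancer lines keep the pathway active beside glycolysis, and several complex IV subunits have tissue-restricted isoforms used mainly in muscle, lung or testis.

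Chromatin accessibility was measured by ATAC-seq, in which the Tn5 transposase inserts sequencing adapters where DNA is open, to ask how low replication stress changes it. The cells were RKO, a colon cancer line obtained from ATCC and used at passage 3, grown under lowered oxygen. Aphidicolin (APH), an inhibitor of replicative DNA polymerases, was given at 0.2 µM for 16 h to 3 samples, and the other 3 received DMSO. One list of peaks was deposited per sample, with 65865, 77194 and 64511 peaks for DMSO 1, 2 and 3 and 79807, 84510 and 70121 for APH 1, 2 and 3. Each peak has a position and a value, the mean height of the signal map over the peak. In 97.1% to 97.2% of the peaks tested in each sample, those below 1000 in bp and in value, the mean times the number of 32-nt bins was whole to the precision of the deposited digits, so that the map shows no scaling to library size. How deeply each library was sequenced is unknown, and the sources used here do not say if reads were down-sampled to a common number. Without such down-sampling a difference in depth would pass directly into the values.

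A peak was given to a gene when its midpoint lay in the gene or within 1 kb of it. Overlapping peaks of the 6 samples were merged into regions, and the region of highest mean value among those with a peak in all 6 samples is called the lead region of the gene. Of 8 genes listed as markers of colon epithelium, EPCAM, CDH1, KRT8, KRT18, CDX1 and CDX2 had a peak in all 6 samples, VIL1 in 4 and KRT20 in 2. Among markers of other cells, CD3E and ALB had no peak. PTPRC, PECAM1, CDH5, COL1A1, COL1A2 and PDGFRB had a peak in all 6, with lead values from 53.8 to 119.9, so that peaks in or near these genes did not separate colon from other cells.

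Of the 92 members, 85 had a peak in all 6 samples, and all 85 had a lead region, none of them shared between members. This is 92.4% of the members, beside 74.6% of all protein-coding genes. The lead region lay within 1 kb of a RefSeq start of the gene in 79 of the 85. In 37 of the 85 it also lay within 1 kb of the start of another protein-coding gene, so that its signal cannot be assigned to the member alone, and in 36 it was the lead region of a gene outside the group as well. For NDUFAF6, NDUFA10, NDUFB6, NDUFC2-KCTD14 and ATP5MF-PTCD1, among others, the lead region lay farther than 1 kb from every listed start of the gene.

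The other 7 members were all tissue isoforms or near copies of another member. COX7A1, the muscle form of a small complex IV subunit, COX8C, a testis form, and UQCRHL and ATP5MGL, near copies of UQCRH and ATP5MG, had no peak in any sample. COX4I2, the lung form of the regulatory subunit COX4I1, had 1 peak in APH 2 with a value of 31.2. COX6A2, the heart and muscle partner of COX6A1, had 1 peak in APH 1 with a value of 19.5, near the lowest value of any peak of a sample (15.1 to 15.5). COX7B2 had peaks in DMSO 2 and in the 3 APH samples, all of them at least 22321 bp from a listed start and between 20.6 and 29.1 in value.

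The ubiquitous partners stood above the floor of the lists, over a wide range. Their mean lead values over the 6 samples were 388.0 for COX8A, 340.4 for COX6B1, 280.5 for COX6A1, 236.6 for UQCRH, 204.2 for COX7A2, 103.1 for COX7B, 70.4 for COX4I1 and 49.5 for ATP5MG. COX7B, COX4I1 and ATP5MG lay below the median of 138.3 over all protein-coding genes. COX6B2, the testis form of a subunit facing the intermembrane space, was the exception among the 8 isoforms looked up. It had a peak in all 6 samples and a mean of 87.1, above those of COX4I1 and ATP5MG. Its lead region was centred 733.5 bp from the start. Which isoform is transcribed cannot be read from these peak lists.

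Promoter sequences of 75 of the 92 members, from 250 bases before to 50 after the start, were found in the RefSeq table (GRCh38.p14). COX8A, a transmembrane subunit of complex IV, is shown because its lead region was strong, beside COX6A2 and COX8C, which had no lead region. The windows are chr11:63974370-63974669 (plus strand) for COX8A, chr16:31428311-31428610 (minus strand) for COX6A2 and chr14:93346932-93347231 (plus strand) for COX8C. Capitals mark an ETS motif in COX8A and an NRF1 motif in COX8C, and all are written 5′ to 3′.
COX8A: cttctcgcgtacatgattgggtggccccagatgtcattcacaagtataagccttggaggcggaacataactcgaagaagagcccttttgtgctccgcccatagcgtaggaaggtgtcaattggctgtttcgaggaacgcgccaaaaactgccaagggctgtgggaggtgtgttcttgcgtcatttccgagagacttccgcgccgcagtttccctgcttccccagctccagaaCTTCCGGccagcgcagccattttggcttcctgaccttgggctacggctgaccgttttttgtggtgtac
COX6A2: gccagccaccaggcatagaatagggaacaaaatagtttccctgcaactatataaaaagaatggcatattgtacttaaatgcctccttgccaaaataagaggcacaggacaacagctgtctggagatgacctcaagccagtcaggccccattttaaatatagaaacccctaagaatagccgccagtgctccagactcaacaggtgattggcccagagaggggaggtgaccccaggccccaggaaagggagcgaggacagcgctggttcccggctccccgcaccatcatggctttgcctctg
COX8C: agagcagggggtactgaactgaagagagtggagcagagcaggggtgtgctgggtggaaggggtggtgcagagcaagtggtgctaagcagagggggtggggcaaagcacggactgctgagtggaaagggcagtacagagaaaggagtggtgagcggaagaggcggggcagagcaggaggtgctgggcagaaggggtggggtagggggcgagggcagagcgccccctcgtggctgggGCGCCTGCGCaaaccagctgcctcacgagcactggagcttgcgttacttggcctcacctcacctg

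The window of COX8A has a GC content of 55.0% with 18 CpG, that of COX6A2 52.0% with 5 CpG, and that of COX8C 64.3% with 10 CpG. An NRF1 motif was thus present in a promoter without a peak. Over all members with a promoter the medians were 60.3% GC and 22 CpG, against 62.7% and 22 over the 15843 protein-coding promoters of the table. Members without a lead region had a median of 8 CpG, over the 3 that matched.

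A further 4 promoters are shown for members that stand out in level or in the comparison of APH with DMSO. NDUFS7 is a core subunit of complex I with the iron-sulfur cluster next to ubiquinone, UQCRFS1 is the Rieske iron-sulfur protein of complex III, COX5B is a zinc-binding subunit of complex IV, and ATP5MK is a small membrane subunit of complex V. Their windows are chr19:1383657-1383956 (plus), chr19:29213102-29213401 (minus), chr2:97645812-97646111 (plus) and chr10:103396426-103396725 (minus). Each of these windows lay inside the lead region of its gene, in the upstream sequence and the beginning of the transcribed part. Capitals mark a YY1 motif in NDUFS7, an NRF1 motif in UQCRFS1 and ETS motifs in COX5B and ATP5MK.
NDUFS7: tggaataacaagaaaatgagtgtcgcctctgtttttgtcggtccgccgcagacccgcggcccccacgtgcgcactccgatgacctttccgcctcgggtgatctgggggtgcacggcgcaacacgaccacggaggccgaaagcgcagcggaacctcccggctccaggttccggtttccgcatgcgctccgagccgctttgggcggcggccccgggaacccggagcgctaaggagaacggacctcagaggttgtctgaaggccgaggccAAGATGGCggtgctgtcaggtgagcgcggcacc
UQCRFS1: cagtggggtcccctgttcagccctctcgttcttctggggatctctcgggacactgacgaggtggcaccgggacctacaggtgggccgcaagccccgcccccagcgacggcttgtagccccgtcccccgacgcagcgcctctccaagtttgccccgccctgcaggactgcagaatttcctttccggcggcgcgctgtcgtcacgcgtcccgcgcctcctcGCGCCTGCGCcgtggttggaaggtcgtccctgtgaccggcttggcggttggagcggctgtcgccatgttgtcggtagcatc
COX5B: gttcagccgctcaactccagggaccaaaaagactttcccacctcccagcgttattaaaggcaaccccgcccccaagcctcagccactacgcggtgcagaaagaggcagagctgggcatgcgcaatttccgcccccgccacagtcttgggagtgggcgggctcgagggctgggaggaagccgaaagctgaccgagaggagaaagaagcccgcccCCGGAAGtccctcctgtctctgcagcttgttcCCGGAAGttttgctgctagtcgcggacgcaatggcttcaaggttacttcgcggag
ATP5MK: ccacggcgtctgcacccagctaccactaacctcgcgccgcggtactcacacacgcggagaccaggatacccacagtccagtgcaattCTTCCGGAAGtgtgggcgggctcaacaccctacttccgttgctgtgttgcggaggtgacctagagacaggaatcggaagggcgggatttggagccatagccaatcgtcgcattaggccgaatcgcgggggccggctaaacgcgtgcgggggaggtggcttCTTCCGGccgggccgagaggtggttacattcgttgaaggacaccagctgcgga

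The motifs were searched on both strands, and matches that overlapped were all counted. ATP5MK holds 3 ETS matches, of which a pair overlaps on opposite strands. The NRF1 motif (GCGCA and GCGC with any 1 base between them) was found in 16 of 75 member promoters, or 21.3%, against 8.59% of all promoters. The ETS motif (CCGGAAG) was found in 20, or 26.7%, against 14.2%, and the YY1 motif (AAGATGGC) in 11, or 14.7%, against 3.86%. The NFY motif (CCAAT) and the SP1 motif (GGGCGG) were found in 38.7% and 58.7%, against 36.4% and 58.3%. The shares describe letters in these windows and no binding was measured.

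**Figure D1:**
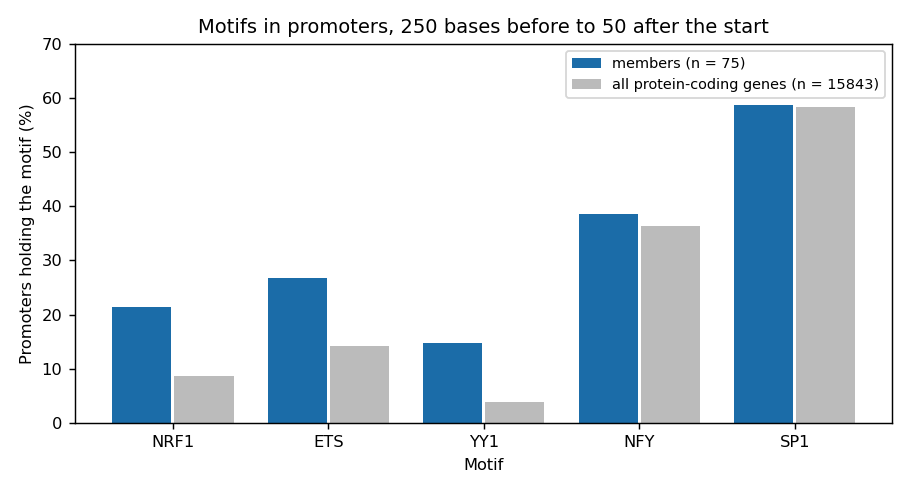
Share of promoters (%) that hold each motif, for the 75 members in the promoter table and for all 15843 protein-coding promoters. The bars of NRF1, ETS and YY1 are higher in members, and those of NFY and SP1 are nearly level.

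Among the 72 matched members with a lead region, those with an ETS motif had a median lead value of 196.7 and a median log2 change from DMSO to APH of -0.34, against 180.3 and -0.30 without it. For the NRF1 motif the values were 199.1 and -0.29 with it, against 175.4 and -0.31 without. For the YY1 motif they were 172.4 and -0.28, against 185.2 and -0.31. With the NFY motif they were 219.4 and -0.31, against 153.2 and -0.31, and with the SP1 motif 180.8 and -0.29, against 185.65 and -0.33. The median change as deposited thus lay between -0.34 and -0.28 in each of these groups, while the median level was highest with the NFY motif and lowest without it. After quantile normalization the median change with and without the motif was -0.13 and -0.08 for ETS, -0.08 and -0.11 for NRF1, -0.16 and -0.10 for YY1, -0.07 and -0.12 for NFY, and -0.09 and -0.13 for SP1, so that the order turned for YY1 and NFY. The differences were not tested.

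Lead values of members were higher in the median than those of all protein-coding genes, in every sample. The median lead value of the 85 members was 194.1, 220.8 and 202.5 in DMSO 1, 2 and 3, and 172.7, 177.0 and 163.6 in APH 1, 2 and 3. The APH samples were all below the DMSO samples. Over the lead regions of all 14953 protein-coding genes that had one, the medians were 140.2, 153.9 and 151.6 in DMSO and 121.4, 129.6 and 128.5 in APH, also without overlap. The ratio of the member median to the protein-coding median averaged 1.39 ± 0.0495 for DMSO and 1.35 ± 0.0757 for APH (SD over 3 samples each), with overlapping samples.

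By complex, the median lead value over the 6 samples was 225.9 for complex III, 206.6 for complex V, 187.5 for the complex I assembly factors, 176.4 for the complex I core, 164.8 for the other complex I subunits and 158.5 for complex IV, against 138.3 for all protein-coding genes. The complexes overlap widely gene by gene. Single genes ran from 47.9 for NDUFB8, a membrane arm subunit of complex I, to 557.1 for ATP5F1B, the catalytic beta subunit of complex V.

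**Figure D2:**
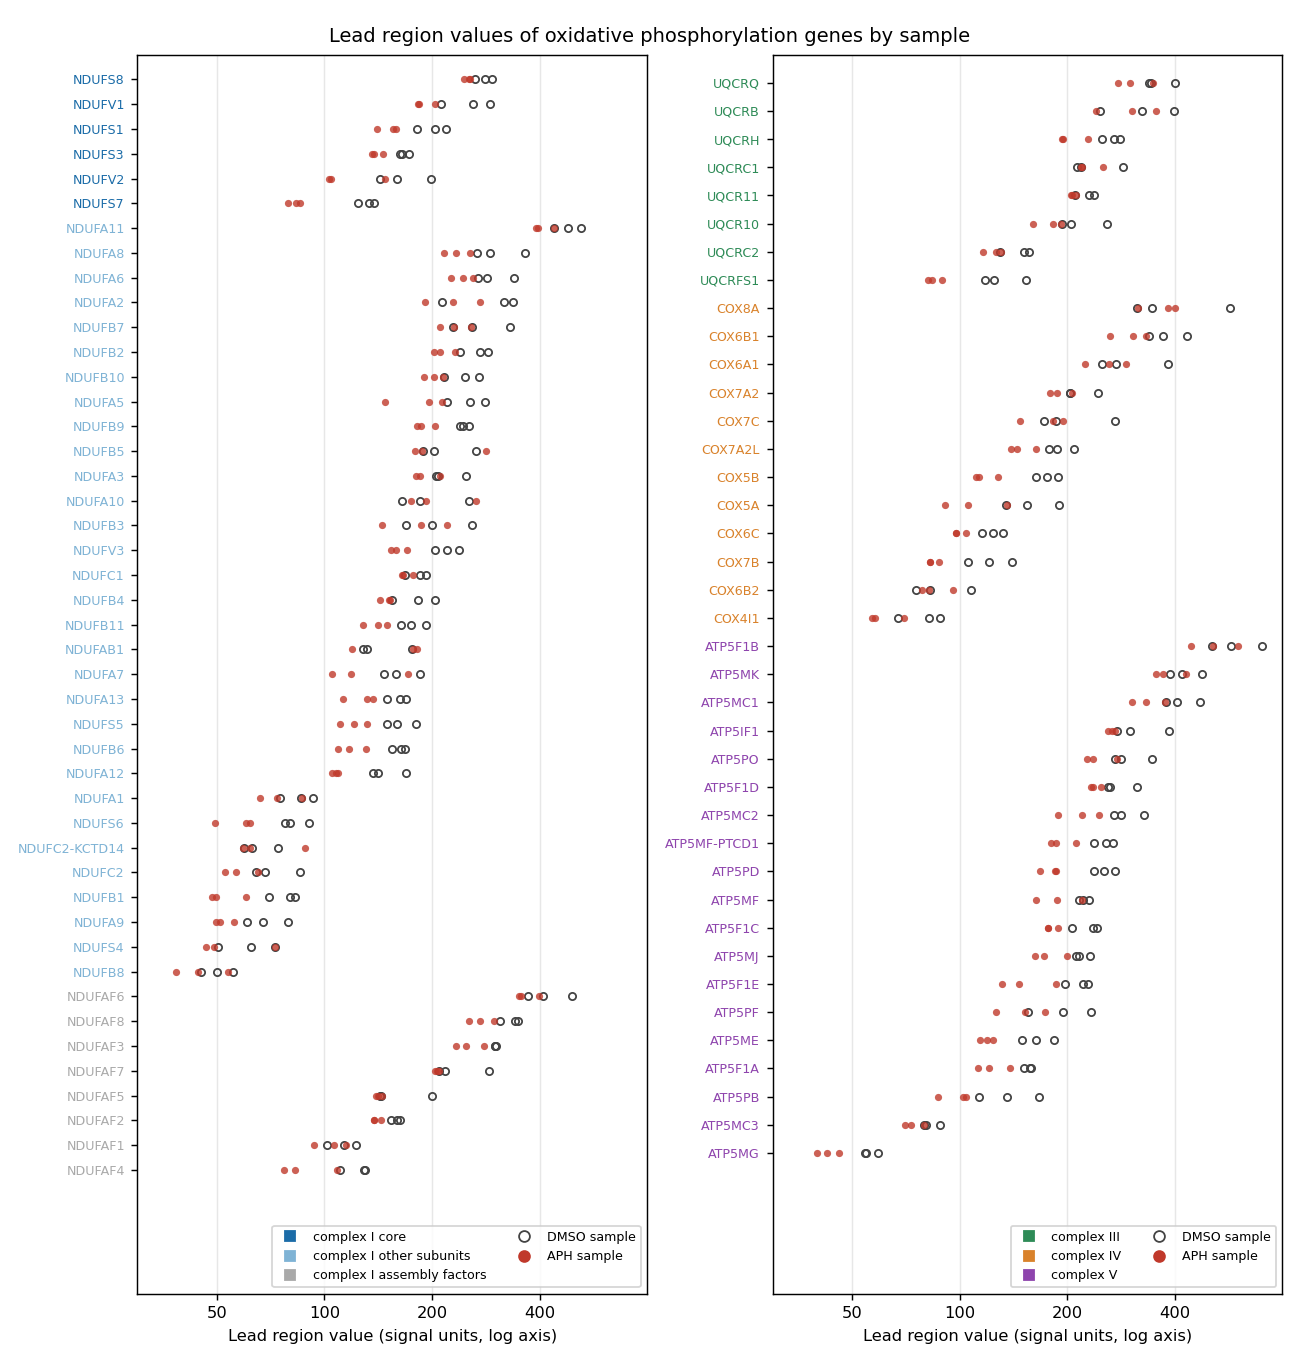
Lead region value (signal units, log axis) of members in every sample, with open circles for DMSO and filled circles for APH, ordered by mean value within each complex. Values run from about the level of NDUFB8 to that of ATP5F1B, and in most rows the APH samples lie to the left.

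Relative to the protein-coding median of the same sample, complex IV stood at 1.24, 1.22 and 1.24 in DMSO 1, 2 and 3 and at 1.06, 0.974 and 1.10 in APH 1, 2 and 3. All APH samples were below all DMSO samples. Complex V stood at 1.58, 1.57 and 1.55 in DMSO and at 1.43, 1.39 and 1.47 in APH, again without overlap. The complex I core stood at 1.30, 1.42 and 1.34 in DMSO and at 1.31, 1.08 and 1.21 in APH, where APH 1 lay above DMSO 1. For complex III (1.58 ± 0.153 and 1.64 ± 0.0527), the assembly factors (1.38 ± 0.186 and 1.38 ± 0.0380) and the other complex I subunits (1.19 ± 0.0701 and 1.24 ± 0.0988), the DMSO and APH samples overlapped (SD, n = 3). The difference between complexes was not tested.

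**Figure D3:**
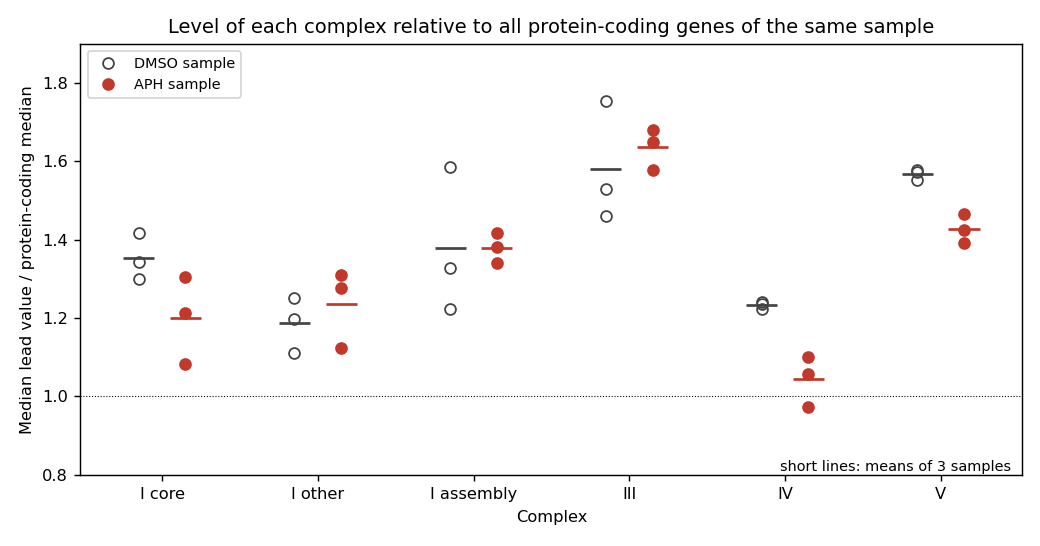
Median lead value of each complex divided by the median of all protein-coding genes in the same sample, with open circles for DMSO, filled circles for APH and short lines for the means of 3 samples. Complexes IV and V are separated between conditions, and the other groups overlap.

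No shared region, of a member or of any other gene, passed an adjusted p of 0.05 between APH and DMSO (limma with Benjamini-Hochberg adjustment, 0 of 50150, 0%). At an unadjusted p below 0.05, 5062 of the 50150 regions were lower in APH and 1235 higher. This balance rests on the scaling, with 4925 lower and 3091 higher when the samples were centred on their medians, and 2306 lower and 2963 higher after quantile normalization, which gives each sample the same distribution of values over the shared regions. Of the 85 lead regions of members, 37 were lower at that unadjusted p and 0 higher, against 27.6% and 0.95% of the lead regions of all protein-coding genes. The 37 make 43.5% of the members. The study's methods call the samples of a condition biological replicates, so that the p-values measure the spread between these replicates. A fit with a block by replicate number did pass regions at the adjusted p. It is given below with the alternatives, since the numbers were not taken to pair the samples.

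The direction was shared by nearly all members and by most other genes. With the values as deposited the log2 change was negative for 82 of 85 members, or 96.5%, against 82.2% of all protein-coding genes, with a median of -0.29 against -0.22. In 48 of 85 members, or 56.5%, all APH samples were below all DMSO samples, against 33.7% of all protein-coding genes, and in 0 were they all above, against 1.48%. Quantile normalization moved the protein-coding median to -0.06 and the member median to -0.09. Under it 60 of 85 members were negative (70.6%, against 63.4% of all protein-coding genes), and 13 were lower at an unadjusted p below 0.05 (15.3%, against 6.81% of all protein-coding genes) and 0 higher (against 4.11%).

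By complex, the median log2 change was -0.40 for the complex I core, -0.33 for complex V, -0.32 for complex IV, -0.31 for the other complex I subunits, -0.23 for complex III and -0.19 for the assembly factors. After quantile normalization the same medians were -0.18, -0.12, -0.13, -0.14, -0.03 and 0.0018. The protein-coding median was -0.22 and -0.06, so that the complex I core, the other complex I subunits and complexes IV and V lay below it under both scalings, while complex III and the assembly factors lay near or above it. The number lower at an unadjusted p below 0.05 was 4 of 7 for the complex I core, 11 of 19 for complex V, 6 of 12 for complex IV, 12 of 31 for the other complex I subunits, 2 of 8 for complex III and 2 of 8 for the assembly factors, against 27.6% of all protein-coding genes. The shares of complex III and of the assembly factors are near the latter. After quantile normalization the numbers were 1, 4, 2, 5, 1 and 0 in the same order, against 6.81%. As deposited, the 11 of complex V include the readthrough gene ATP5MF-PTCD1 but not ATP5MF. The lead region of ATP5MF-PTCD1 lay within 1 kb of the starts of PTCD1 and CPSF4. The other complex I subunits had a slightly higher mean relative level in APH, with overlapping samples, while their median change was below that of all genes. A median of levels and a median of changes are different quantities. The complex I core had the most negative median change as deposited, but this order rests on the gene window. With a window of 5 kb the medians were -0.29 for the core, -0.32 for complex IV and -0.32 for complex V. With the window not extended they were -0.28, -0.31 and -0.34.

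**Figure D4:**
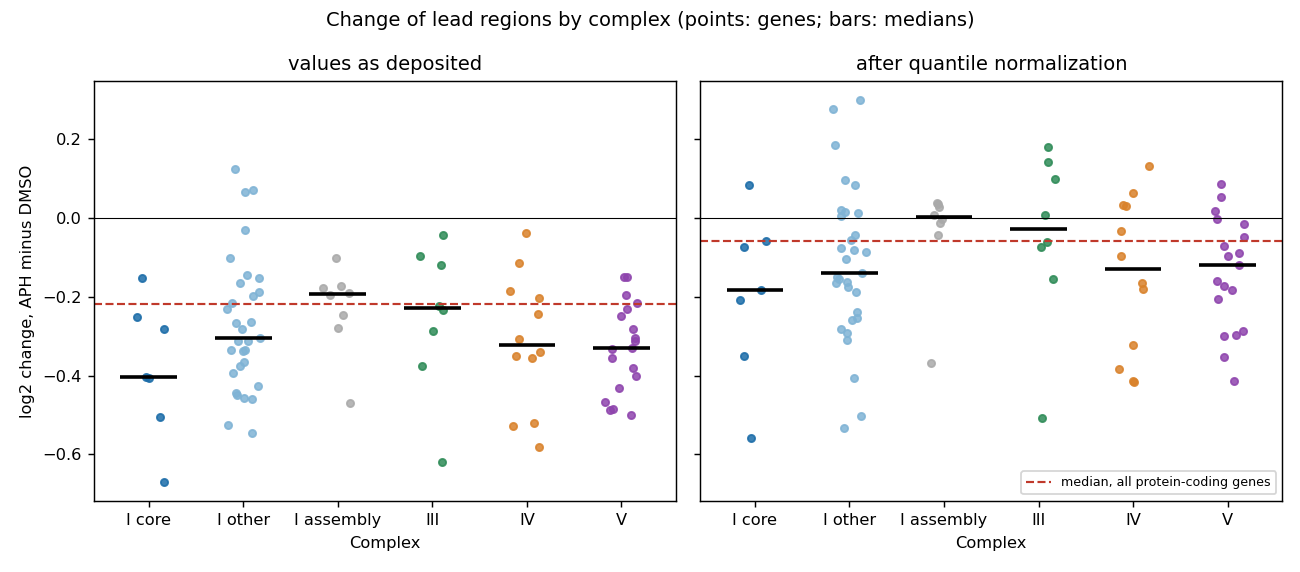
Log2 change of the lead region from DMSO to APH for each member, by complex, with values as deposited (left) and after quantile normalization (right). Bars are medians, and the dashed line is the median of all protein-coding genes (-0.22 and -0.06).

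In the complex I core, NDUFS7 had lead region values of 124.0, 133.5 and 137.8 in DMSO 1, 2 and 3 and 78.9, 85.3 and 83.3 in APH 1, 2 and 3 (chr19:1383094-1384086). All APH samples were well below all DMSO samples. The log2 change was -0.67 with a standard error of 0.15, at an unadjusted p of 0.000336 and an adjusted p of 0.290, and it was -0.56 after quantile normalization. NDUFS7 had both the lowest level of the core and the most negative change of all 85 members.

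The core subunit of highest level showed a smaller difference. NDUFS8, which carries iron-sulfur clusters, had values of 263.7, 293.8 and 281.3 in DMSO and 253.5, 254.8 and 245.8 in APH (log2 change -0.15), without overlap but with a change of 0.08 after quantile normalization.

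Among the other subunits of complex I, NDUFA11, of the membrane arm, had the highest level, with 440.1, 520.6 and 479.4 in DMSO and 395.1, 437.6 and 391.6 in APH (log2 change -0.23). All APH samples were below all DMSO samples, by a small margin between APH 2 and DMSO 1, and the change was 0.0037 after quantile normalization. NDUFA8, on the intermembrane space side, had 266.7, 364.3 and 289.9 in DMSO and 233.3, 254.7 and 216.3 in APH (log2 change -0.38, and -0.14 after quantile normalization), again without overlap. NDUFB8, of lowest level, had 50.2, 55.5 and 45.2 in DMSO and 53.8, 38.4 and 44.2 in APH (log2 change -0.15, and -0.19 after quantile normalization), with overlap.

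With the values as deposited, the 3 members with a positive change were all in this group. NDUFAB1, the mitochondrial acyl carrier protein, had values of 128.0, 176.2 and 131.4 in DMSO and 181.2, 177.2 and 119.1 in APH (log2 change 0.12, adjusted p = 0.827, and 0.30 after quantile normalization). APH 3 was the lowest of the 6 samples, so that the groups overlapped. NDUFA10, a subunit of the membrane arm, had a change of 0.06 and NDUFC2-KCTD14 one of 0.07, with overlap in both and with lead regions far from the listed starts (97767.5 and 56608.5 bp). After quantile normalization their changes were 0.28 and 0.08.

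The assembly factors of complex I are not part of the finished enzyme. Their median change was near that of complex III, and which was smaller depended on the setting, with -0.20 for the assembly factors and -0.16 for complex III without DMSO 2, and -0.21 and -0.19 without APH 3. NDUFAF8 had values of 310.5, 347.7 and 341.4 in DMSO and 273.1, 297.4 and 253.4 in APH (log2 change -0.28, and -0.04 after quantile normalization), without overlap. NDUFAF4, a partner of NDUFAF3 in early assembly and the factor of lowest level, had 128.9, 110.8 and 129.9 in DMSO and 82.8, 77.2 and 108.3 in APH (log2 change -0.47, and -0.37 after quantile normalization). All APH samples were lower, APH 3 by only a little. NDUFAF2 had a log2 change of -0.18, also without overlap, and one of -0.0038 after quantile normalization.

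In complex III, UQCRFS1 had lead region values of 118.1, 153.1 and 124.6 in DMSO and 81.7, 83.9 and 89.5 in APH (chr19:29212945-29213437). All APH samples were below all DMSO samples. The log2 change was -0.62 with a standard error of 0.16, at an unadjusted p of 0.00109 and an adjusted p of 0.290, and it was -0.51 after quantile normalization. UQCRFS1 had the lowest level in the complex.

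The strongest complex III promoter was that of UQCRQ, a small subunit, with 339.6, 401.2 and 343.8 in DMSO and 299.2, 346.9 and 277.3 in APH (log2 change -0.23, but 0.0058 after quantile normalization). APH 2 lay above DMSO 1 and 3. UQCRH, the hinge protein that contacts cytochrome c1, had 249.8, 281.3 and 270.4 in DMSO and 194.9, 229.0 and 194.0 in APH (log2 change -0.38, and -0.16 after quantile normalization), without overlap.

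In complex IV, COX5B had lead region values of 175.6, 189.0 and 163.7 in DMSO and 111.4, 113.2 and 127.8 in APH (chr2:97645295-97646341). The groups did not overlap. The log2 change was -0.58 with a standard error of 0.14, at an unadjusted p of 0.000627 and an adjusted p of 0.290, and it was -0.41 after quantile normalization. COX7B, a small subunit on the X chromosome, had 120.8, 140.1 and 105.3 in DMSO and 82.5, 87.4 and 82.8 in APH (log2 change -0.52, and -0.42 after quantile normalization), also without overlap.

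The strongest lead regions of complex IV were those of COX8A and COX6B1. COX8A had 312.6, 569.8 and 346.0 in DMSO and 382.1, 401.6 and 315.7 in APH (log2 change -0.12), and DMSO 2 stood far above the other samples while the groups overlapped. COX6B1, which faces the intermembrane space, had 338.4, 433.2 and 369.7 in DMSO and 304.9, 333.0 and 263.0 in APH (log2 change -0.34, and -0.10 after quantile normalization), without overlap. COX4I1 had 87.9, 67.4 and 82.0 in DMSO and 58.2, 56.8 and 70.1 in APH (log2 change -0.35, and -0.32 after quantile normalization), where APH 3 lay above DMSO 2. COX6B2, COX6A1 and COX7A2 had log2 changes of -0.04, -0.20 and -0.19, with overlap in each. After quantile normalization the changes of COX8A and of these 3 genes turned positive, at 0.13 for COX8A, 0.06 for COX6B2, 0.03 for COX6A1 and 0.03 for COX7A2.

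In complex V, ATP5F1B had 508.9, 702.3 and 574.7 in DMSO and 512.2, 599.7 and 444.5 in APH (log2 change -0.20), with overlap. ATP5MK had 387.5, 476.9 and 418.9 in DMSO and 370.9, 430.8 and 354.8 in APH (log2 change -0.15), with APH 2 above DMSO 1 and 3. Both changes turned positive after quantile normalization (0.05 and 0.08). ATP5MG, a subunit of the membrane part and the lowest of the complex, had 54.8, 59.3 and 54.3 in DMSO and 40.0, 46.1 and 42.5 in APH (log2 change -0.38, and -0.41 after quantile normalization), without overlap. ATP5PD, a peripheral stalk subunit chosen after its values were seen, had 238.3, 271.8 and 253.2 in DMSO and 167.4, 186.4 and 184.9 in APH (log2 change -0.50, adjusted p = 0.290, and -0.29 after quantile normalization), also without overlap.

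The members were also divided by the level of the lead region, a division that was chosen after the values were seen and not tested. The 28 members of lowest level, between 47.9 and 143.6, had a median log2 change of -0.39, the 28 of middle level -0.28 and the 29 of highest level -0.25. After quantile normalization these were -0.30, -0.08 and -0.01. Over all protein-coding genes divided in the same way, the medians were -0.08, -0.24 and -0.27 as deposited and -0.07, -0.08 and -0.04 after quantile normalization, so that the order as deposited was opposite to that of the members. The lowest groups are not alike in kind, since that of all genes ran from 20.6 to 102.4 with a median region width of 492 bp, against 969.5 bp in the members. Whether this width has a part in the difference was not tested.

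**Figure D5:**
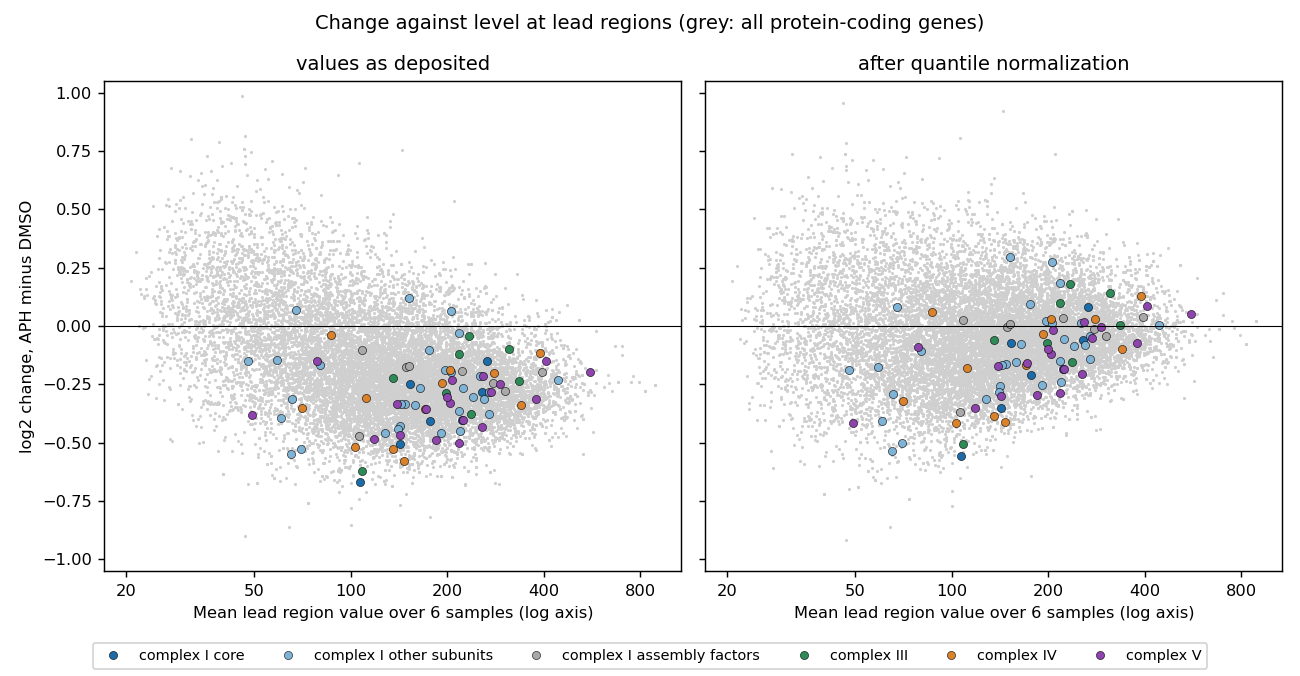
Log2 change from DMSO to APH against the mean lead region value (log axis) for all protein-coding genes (grey) and members coloured by complex, as deposited (left) and after quantile normalization (right). Most members lie below 0 on the left, and on the right those of high value lie around 0 while many of low value stay below it.

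All peaks of a gene were also summed, each value multiplied by its length in kb, and compared with limma over the 15043 protein-coding genes with a peak in all 6 samples. By this measure 25 of 85 members were lower in APH at an adjusted p of 0.05 and 0 higher, against 16.0% and 0.346% of all genes tested. The 25 make 29.4% of the members and include 9 of 19 in complex V, 3 of 7 in the complex I core, 8 of 31 other complex I subunits, 3 of 12 in complex IV, 1 of 8 in complex III and 1 of 8 assembly factors. The 9 in complex V include the readthrough gene ATP5MF-PTCD1 (adjusted p = 0.0426, limma), which takes in peaks of a neighbouring gene. ATP5MF itself was not called (adjusted p = 0.330). Covered lengths were added gene by gene, so that a peak shared by genes counts for each of them. The peaks of the 85 members covered 102.2, 97.4 and 102.3 kb in DMSO and 99.3, 101.2 and 102.4 kb in APH. Their mean values were 167.6, 189.0 and 171.3 against 141.0, 146.9 and 141.2. The covered length of the members overlapped between conditions and the mean value did not. The mean value was lower in APH over all 15043 genes as well, with 123.5, 130.9 and 132.8 in DMSO and 103.5, 108.6 and 110.9 in APH. Unlike in the members, the covered length over all genes did not overlap, with 22220, 22220 and 21760 kb in DMSO and 22700, 23140 and 22320 kb in APH.

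These calls rest on the scaling and on single libraries. When the samples were centred on their medians, the median change over all genes moved from -0.22 to 0.01 and that of the members from -0.32 to -0.09, and 0 members were called. Without DMSO 1, DMSO 3, APH 1 or APH 2 the number of members called was 0 each time, without DMSO 2 it was 16 and without APH 3 it was 27. Over all genes the number lower was 0, 4, 0, 2, 1661 and 3718 in the same order, against 2412 with all samples, and the number higher 1, 3, 1, 2, 148 and 214 against 52.

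The called genes named here were chosen after their values were seen. ATP5PD had summed signals of 233.0, 252.2 and 248.9 in DMSO and 157.5, 171.3 and 186.2 in APH. All APH samples were lower, with a log2 change of -0.51 ± 0.097 (SE) and an adjusted p of 0.0258 (limma). The peaks covered 0.978, 0.928 and 0.983 kb in DMSO and 0.941, 0.919 and 1.01 kb in APH, with mean values of 254.4 and 179.6. NDUFS7 had 125.8, 115.5 and 128.2 in DMSO and 67.0, 79.3 and 79.6 in APH, a log2 change of -0.71 ± 0.14 (SE) and an adjusted p of 0.0261, likewise without overlap. Its peaks covered a mean of 0.991 kb in DMSO and 0.912 kb in APH, with mean values of 126.1 and 82.5. With centring the log2 change was -0.28 for ATP5PD (adjusted p = 0.240) and -0.47 for NDUFS7 (adjusted p = 0.237).

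The number of peaks was compared without a test. Peaks were counted gene by gene, so that a peak in a readthrough gene and in the member it spans counts for each. The members held 162, 175 and 167 peaks in DMSO and 185, 197 and 177 in APH, and the APH samples were all above the DMSO samples. When peaks below the overall median value were left out, this difference was gone, with means of 140.0 in DMSO and 140.3 in APH. With the same number of peaks per sample they were 166.7 and 175.3. With no peaks left out, these counts came to 0.246%, 0.227% and 0.259% of the full list in DMSO and 0.232%, 0.233% and 0.252% in APH, with overlap. NDUFAF6 had the most peaks, with 11, 15 and 12 in DMSO and 14, 17 and 16 in APH. NDUFA10 followed with a mean of 7.33 per sample and NDUFAF2, which binds a late intermediate of complex I, with 6, and all 3 are long genes of 132901 to 222698 bp.

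The members on chromosome 8 were looked at apart, because an earlier reading of these data had found higher values in APH along its long arm. NDUFAF6, an assembly factor, had lead values of 371.0, 408.7 and 491.8 in DMSO and 349.9, 353.8 and 399.5 in APH, with overlap. UQCRB, a complex III subunit near the ubiquinone site, had 323.4, 397.3 and 247.7 in DMSO and 303.2, 354.8 and 241.2 in APH, with overlap. COX6C had 124.1, 132.3 and 115.8 in DMSO and 97.9, 104.1 and 97.8 in APH, and NDUFB9 had 244.8, 253.7 and 239.7 in DMSO and 182.1, 186.8 and 203.8 in APH. In these last genes all APH samples were below all DMSO samples. The median log2 change of the 4 genes was -0.25, against -0.29 for the other 81 members with a lead region. After quantile normalization these medians were -0.06 and -0.09, and the changes of NDUFAF6 and UQCRB turned positive (0.04 and 0.14).

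Other genes of the pathway, 57 in all, were taken from a list of complex II, the cytochrome c side, assembly factors, regulators and mitochondrial polymerases, and all had a lead region. Their median log2 change was -0.31, and it was negative in 55, or 96.5%, against 82.2% of all protein-coding genes. At an unadjusted p below 0.05, 29 were lower (50.9%, against 27.6%) and 0 higher, and in 29 all APH samples were below all DMSO samples (50.9%, against 33.7%). After quantile normalization the median was -0.11, and 48 were negative (84.2%, against 63.4%), with 5 lower at that p, or 8.77%, near the 6.81% of all protein-coding genes, and 1 higher. By summed signal 19 of 57 were lower at the adjusted p (33.3%, against 16.0%) and 0 higher, and 0 of 57 with centring. Complex II had a median log2 change of -0.39 over 4 genes, the assembly list -0.31 over 38 and the regulators -0.28 over 11. The cytochrome c side (CYC1, for cytochrome c1, and CYCS) had -0.31 and the mitochondrial polymerases -0.45, over 2 genes each. CYC1 is not in the complex III group used here, which was set by UQCR symbols. After quantile normalization the medians were -0.19 for complex II, -0.11 for the assembly list and -0.06 for the regulators. The last of these was near the -0.06 of all protein-coding genes. For the cytochrome c side and the polymerases they were -0.08 and -0.23.

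Of the regulators, YY1 had a log2 change of -0.49, NRF1 one of -0.37 and GABPA one of -0.36, with adjusted p-values of 0.290, 0.381 and 0.390 (limma). The list held no factor for the NFY and SP1 motifs. All 3 changes were smaller after quantile normalization, at -0.26, -0.15 and -0.16. The change was negative in 10 of the 11 regulators. The other one, GABPB1, had a lead region change of 0.01, with overlap, and one of 0.18 after quantile normalization. Its summed signal had a log2 change of -0.46 (adjusted p = 0.0329, limma). The lead region of GABPA is the same region as that of the member ATP5PF, a peripheral stalk subunit of complex V, with 194.1, 233.0 and 155.1 in DMSO and 173.1, 152.4 and 126.5 in APH. APH 1 lay above DMSO 3. The signal of the shared promoter cannot be told apart between the regulator and the subunit. These genes were chosen for mention after their values were seen.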

How the data were processed

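ATAC-seq peak lists of 6 RKO samples, 3 DMSO and 3 APH, were read. The authors deposited for each peak a signal value, averaged over the peak from binned coverage of extended alignments. According to the submitters' processing notes, BWA 0.7.12, MACS2 2.1.0 and hg38 were used, with peaks called in each sample separately. The methods describe no shift of reads to the transposase cut site. The depth is unknown, so no counting interval is given. Genes, starts and promoters came from RefSeq GRCh38.p14. Strands came from the promoter table and, for genes not in it, by symbol from a GENCODE annotation.

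Peaks that shared 1 bp or more formed 102784 regions, and the length-weighted mean value of the 50150 with a peak in all 6 samples was compared on the log2(value + 1) scale with limma 3.58.1 (R 4.3.3), with an intensity trend and two-sided p-values adjusted by Benjamini-Hochberg at 0.05 over all regions. A log2 change on this scale understates that of low values. Summed signals of 15043 genes were compared in the same way. Lists of genes were described by counts and medians. Both limma fits were tested on simulated data. Tables and plots were made in Python 3.11.15 (pandas 2.3.3, numpy 2.4.6, matplotlib 3.10.9).

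The rule for named genes took the members past the adjusted p or, as none passed, the 3 of smallest p in each direction. It also took the 2 highest and the lowest by lead value in each complex group, members with a peak in fewer than 6 samples, tissue isoform pairs, members on chromosome 8 and the 3 with most peaks. Some of the genes so named are not reported here. Members and lists were chosen with earlier results of these data known. Ratios to the protein-coding median and the division by level were added after the data were seen. Alternatives covered the pseudocount, centring, quantile normalization, the trend, a minimum mean value, the peak threshold, equal peak numbers, overlap, the samples needed for a region, the gene window, the region nearest the start, blocking by replicate number and leaving out each sample.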

Additional observations from a re-analysis of the deposited data

How the results depend on the processing

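The median change of members stayed negative under every alternative run. Quantile normalization moved it to -0.089, with -0.18 for the complex I core, -0.14 for its other subunits, 0.0018 for its assembly factors, -0.028 for complex III, -0.13 for complex IV, -0.12 for complex V and -0.056 for members on chromosome 8. With the gene window not extended, 47 members had a peak in all 6 samples, and the median was -0.28 for the complex I core and -0.13 for complex III. The number with all APH samples lower was 19 with this window. No share of all protein-coding genes is given for it, so that this count is not compared with other genes. The peaks of all members then numbered 107 in DMSO and 118 in APH, with a window of 5 kb 222 and 247, with peaks at or above the median value 140.0 and 140.3, and with equal peak numbers 166.7 and 175.3. The cause of these shifts was not tested beyond the smaller or larger window itself.

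The number of shared regions past the adjusted p was 1 lower with centring, 46 lower and 156 higher with a peak in at least 3 samples, and 0 to 3 lower with each replicate left out. For summed signals, centring left 1 gene lower, 4 higher and 0 members. With each replicate left out the number lower ran from 0 to 3718, the number higher from 1 to 214 and the members lower from 0 to 27.

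Same-numbered samples correlated in their deviations from the group means by -0.0067, 0.4775 and 0.5153 for numbers 1, 2 and 3, and DMSO 1 correlated best with APH 3 (0.1255), so that the numbers were not taken to pair the samples. With the replicate block, 5583 regions were lower and 1021 higher, and 41 member lead regions passed. With the block and centring these were 5369, 1846 and 42. For these member counts no share over the lead regions of all protein-coding genes is given, so that they are not compared with other genes. The block gave 6778 genes lower and 454 higher by summed signal, with 64 members lower.

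The unknown depth and 3 samples a condition limit all comparisons.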

Other observations

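POLRMT, the RNA polymerase that transcribes the mitochondrial genome, had lead region values of 233.6, 276.7 and 227.1 in DMSO 1, 2 and 3 and 156.3, 173.4 and 165.1 in APH 1, 2 and 3. The groups did not overlap, with a log2 change of -0.57 (adjusted p = 0.290, limma) and -0.36 after quantile normalization. SDHA, the flavoprotein of complex II, had 113.7, 117.9 and 112.4 in DMSO and 76.2, 74.5 and 95.3 in APH, also without overlap (log2 change -0.49, adjusted p = 0.292, and -0.41 after quantile normalization). SURF1, which assists the assembly of complex IV, had 219.8, 310.8 and 233.4 in DMSO and 278.1, 274.4 and 229.9 in APH, with overlap and a log2 change of 0.05. After quantile normalization its change was 0.27, at an unadjusted p of 0.0205 (limma), and its lead region was centred 4273 bp from the nearest listed start. TFAM, which packages mitochondrial DNA, had a log2 change of -0.14, with overlap, and one of 0.02 after quantile normalization. These 4 genes were chosen after their values were seen.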
